A study of Neurospora crassa with 20 samples.

Results

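The genes described here are 6 genes of the filamentous fungus Neurospora crassa, NCU02913, NCU04694, NCU04695, NCU04883, NCU05663 and NCU08524, out of 10397 genes annotated on its chromosomes. They were chosen by 2 readouts of the same study, in which a region with lower H3K9me3 in Δkmt2/Δset-1 than in WT names their transcript and that transcript had higher RNA in the mutant. The H3K9me3 difference between WT and Δkmt2/Δset-1 at these places is therefore given as a description, and nothing is read from it. The 6 genes lie at 5 loci, because the DD region that names NCU04695 and the LP30 region that names NCU04694 overlap and were joined. Each locus was taken as the region with lower H3K9me3 and 5 kb on either side, which gave windows of 10770 to 13509 bp and 59.4 kb in all, holding the 6 genes and 15 neighbours.

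Trimethylation of histone H3 at lysine 9 (H3K9me3) marks heterochromatin, the packed and mostly silent part of the genome, and in Neurospora it is made by the methyltransferase KMT1/DIM-5, is bound by heterochromatin protein 1 and directs DNA methylation. Trimethylation of lysine 4 (H3K4me3) is made by the methyltransferase KMT2/SET-1 and is found near the starts of active genes. H3K9me3 domains form mainly over AT-rich relics of transposons at centromeres, telomeres and scattered places, and short patches also occur near genes.

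Both marks were measured by chromatin immunoprecipitation and sequencing (ChIP-seq) on mycelia of WT, of Δkmt2/Δset-1, which lacks the gene of the H3K4 methyltransferase, and of Δkmt1/Δdim-5, which lacks that of the H3K9 methyltransferase. Each mutant, written Δset-1 and Δdim-5 below, is 1 backcrossed knockout strain, which the labels call set1 and dim5. Cultures were moved from light to constant dark for 24 h (DD), and LP30 cultures then received 30 min of light before harvest. There are 20 samples in 10 groups of 2 replicates, and the authors deposited 8 peak lists. H3K9me3 has lists for WT DD, WT LP30, Δset-1 DD and Δset-1 LP30, all called against the Δdim-5 DD ChIP as control. H3K4me3 has lists for WT DD, WT LP30, Δdim-5 DD and Δdim-5 LP30, all called against the Δset-1 ChIP as control.

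Every list pools its 2 replicates, so no spread between replicates is known and no test between conditions could be made. The fold enrichment of a peak is the ratio of ChIP to control within its own list, and the lists were normalized separately, so values of different lists stand side by side and are not sizes of a change. A place without a peak is a place where the ChIP did not pass the p-value cutoff of 0.1, which does not show that the mark was absent. In pooled tissue, a mark in fewer nuclei and less of the mark per nucleus cannot be told apart.

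The H3K9me3 lists hold 691 (WT DD), 700 (WT LP30), 827 (Δset-1 DD) and 780 (Δset-1 LP30) peaks, and the H3K4me3 lists 4449 to 4822. Between 42.3% and 48.9% of the peaks of an H3K9me3 list had a q-value under 0.01, against 90.2% to 93.9% in the H3K4me3 lists. The deleted genes check the Δdim-5 lists of H3K4me3 and the control strains, and not the labels of the WT and Δset-1 H3K9me3 lists. No H3K4me3 peak lay over dim-5 (NCU04402) in either Δdim-5 list, while WT had 1 of 1.61-fold in DD and 1 of 1.503-fold in LP30. Conversely, set-1 (NCU01206) was covered to at least 98.8% by a peak of 5.10- to 5.24-fold in all 4 H3K4me3 lists, where the control strain lacks that DNA. The H3K9me3 lists have a peak of 1.16- to 1.24-fold over dim-5, where their control lacks the DNA, so fold enrichments at a gene deleted in the control are not readings of the mark.

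All 5 regions had an H3K9me3 peak in WT and none in Δset-1, in DD and in LP30. Of the 6 genes, 5 had a WT H3K9me3 peak over the gene in DD, where 4.66% of all genes did, and 5 in LP30, where 4.07% did. NCU04695 is the exception in both. None of the 6 genes had a peak over it in Δset-1, against 7.65% of all genes in DD and 7.31% in LP30. A peak in WT with none in the mutant marked the same 5 genes in DD and in LP30, where 0.885% and 0.702% of all genes had this pattern. These counts repeat what selected the genes, although the LP30 regions name neither NCU04883 nor NCU08524, whose LP30 peaks share the control ChIP with DD. Counted over peaks, 14.6% of the WT DD peaks and 15% of the WT LP30 peaks had no overlapping peak in the mutant.

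**Figure D1:**
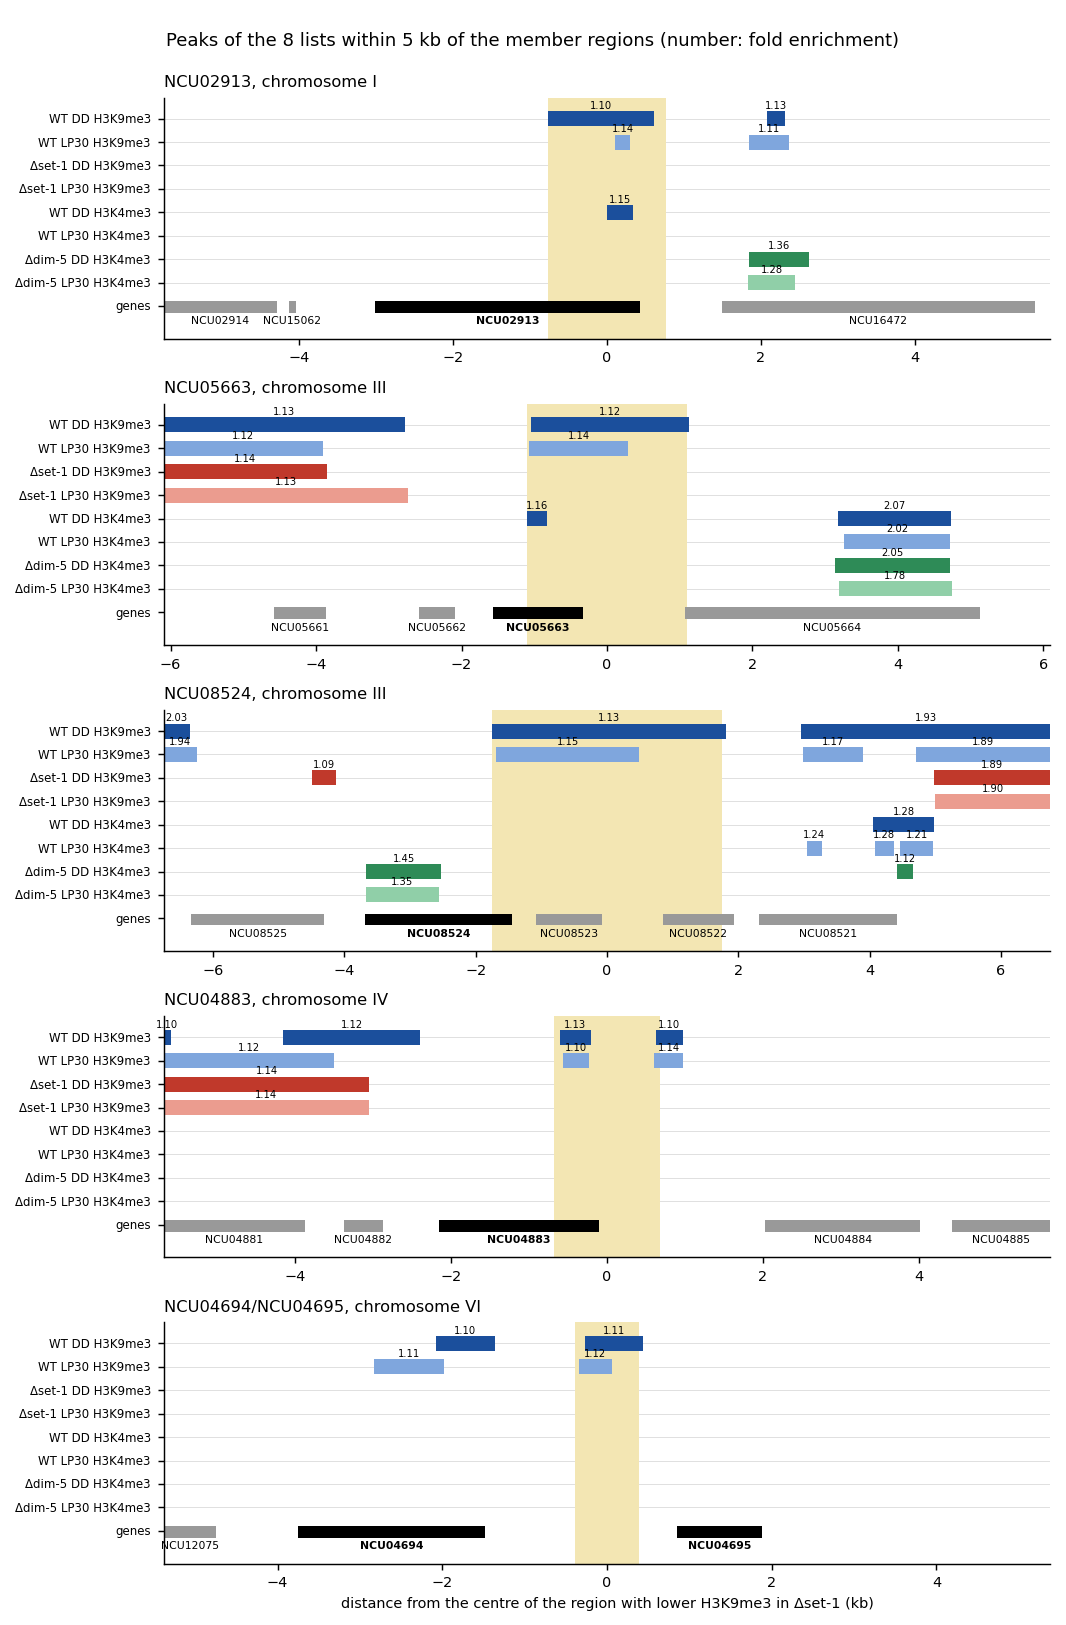
Peaks of the 8 lists at the 5 loci, against the distance in kb from the centre of the region with lower H3K9me3 (yellow). Each bar is a peak cut at the edge of the window, with its fold enrichment above it, and genes are drawn below in black for the 6 genes and grey for their neighbours. No red bar (Δset-1) reaches a yellow region, and the H3K4me3 bars over NCU08524 and NCU16472 occur in Δdim-5 only (green).

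The peaks at the chosen regions were weak ones. The WT peaks over the 5 regions had fold enrichments of 1.10 to 1.13 in DD and 1.10 to 1.15 in LP30, and none had a q-value under 0.01. These values describe the WT lists on their own, but the WT reads also took part in choosing the regions.

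NCU02913 (chromosome I, 8714260 to 8717710, build NC12) and its neighbour NCU16472 (8718768 to 8722839) are divergently transcribed, so their facing ends are their starts. In WT DD an H3K9me3 peak of 1377 bp and 1.10-fold (8716507 to 8717883, −log10 q 0.44) covered 34.9% of NCU02913 at the end that faces NCU16472. In WT LP30 the peak there was 200 bp long and 1.14-fold (8717383 to 8717582, −log10 q 0.71), and no peak in that list was shorter. It lay wholly within the DD peak.

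NCU16472 carried a separate small WT H3K9me3 peak inside the gene near its start, of 231 bp and 1.13-fold in DD and of 520 bp and 1.11-fold in LP30. Both genes of this divergent pair thus had a peak in WT in both conditions. In Δset-1 the nearest H3K9me3 peak to NCU02913 was 143191 bp away in DD and 123061 bp away in LP30. This is the locus farthest from long heterochromatin among the 5, since the nearest WT DD peak of 10 kb or more was 423 kb away, and no H3K9me3 peak of any list lay between 5 and 50 kb from its region.

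NCU05663 (chromosome III, 402181 to 403426) had the second longest of the 5 DD peaks. In WT DD a peak of 2166 bp and 1.12-fold (402711 to 404876, −log10 q 0.66) covered 57.5% of the gene and ran into the edge of the neighbouring gene NCU05664. In WT LP30 the peak was 1368 bp and 1.14-fold (402682 to 404049, −log10 q 0.94), covered 59.8% of the gene and ended before NCU05664.

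The next peak along was listed in WT and mutant alike. On the other side of the gene a peak over NCU05661 was in all 4 H3K9me3 lists, at 1.13-fold in WT DD, 1.12 in WT LP30, 1.14 in Δset-1 DD and 1.13 in Δset-1 LP30. Its length was 6575, 3972, 5593 and 6772 bp in the same order. The nearest mutant peak was therefore 2279 bp from NCU05663 in DD and 1160 bp in LP30.

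NCU08524 (chromosome III, 5053625 to 5055868) lies between 2 strong heterochromatin domains. In WT DD a weak peak of 3561 bp and 1.13-fold (5055565 to 5059125, −log10 q 0.88) touched 13.5% of NCU08524 at one end and covered all of NCU08523 and 89.0% of NCU08522. In WT LP30 it was 2176 bp and 1.15-fold (5055628 to 5057803, −log10 q 1.08), and covered 10.7% of NCU08524. There it still covered NCU08523 and did not reach NCU08522. More of this H3K9me3 patch lay over NCU08523 than over NCU08524 in both conditions. In Δset-1 the only small peak in this gap was in DD, of 368 bp and 1.09-fold, 443 bp beyond the other end of NCU08524.

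The 2 domains that flank NCU08524 were in all 4 H3K9me3 lists at 1.89- to 2.03-fold. On one side the domain ended at 5050957 in WT DD, 5051075 in WT LP30, 5050319 in Δset-1 DD and 5050302 in Δset-1 LP30. On the other side the domain began at 5060274 in WT DD, where it was 30734 bp long, and at 5062022 in WT LP30, 5062300 in Δset-1 DD and 5062306 in Δset-1 LP30. The gap between the domains was 9316 bp in WT DD, 10946 in WT LP30, 11980 in Δset-1 DD and 12003 in Δset-1 LP30. In both mutant lists the domain edges on both sides thus lay farther from the gene than in the WT list of the same condition. The far end of the longer domain was also 2755 bp shorter in Δset-1 DD and 2598 bp shorter in Δset-1 LP30. NCU08521, at the edge of that domain, was covered to 69.2% in WT DD and 43.2% in WT LP30 and had no H3K9me3 peak in the mutant. WT LP30 had a separate peak of 914 bp and 1.17-fold where the WT DD domain began.

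NCU04883 (chromosome IV, 617561 to 619608), annotated as gh18-4, carries the name of glycoside hydrolase family 18, the family of the fungal chitinases. In WT DD a peak of 401 bp and 1.13-fold (619107 to 619507, −log10 q 0.77) covered 19.6% of the gene near one end, and a second of 347 bp and 1.10-fold (620341 to 620687) lay beyond that end. In WT LP30 the same places had peaks of 344 bp and 1.10-fold (−log10 q 0.31) and of 370 bp and 1.14-fold. The edges of the first pair differed by 38 and 19 bp between DD and LP30, and those of the second by 21 and 2 bp.

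Next to NCU04883, on the side of NCU04881 and NCU04882, H3K9me3 was present in all 4 lists. In WT DD it was split into peaks of 914 bp (1.10-fold) and 1748 bp (1.12-fold), and in WT LP30 it was 1 peak of 2601 bp (1.12-fold). In Δset-1 it was 1 peak of 3454 bp in DD and of 3440 bp in LP30, both 1.14-fold. The mutant peak ended 889 bp (DD) and 890 bp (LP30) before NCU04883. The window of NCU04883 therefore held nearly the same H3K9me3 coverage in all lists. It was 2588 bp in WT DD, 2902 in WT LP30, 2638 in Δset-1 DD and 2637 in Δset-1 LP30. The positions differed only in part. The WT LP30 peak of 2601 bp lay wholly within the Δset-1 LP30 peak. The WT peaks at and beyond NCU04883 had no mutant peak at their place.

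NCU04694 (chromosome VI, 410959 to 413229) and NCU04695 (415557 to 416596) are neighbours, and their joined region lies between them. The DD list names NCU04695 there and the LP30 list names NCU04694. The peak between the genes was 706 bp and 1.11-fold in WT DD (414442 to 415147, −log10 q 0.50) and 403 bp and 1.12-fold in WT LP30 (414367 to 414769, −log10 q 0.70). It came to within 409 bp of NCU04695 in DD and 787 bp in LP30, and touched neither gene.

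NCU04694 carried a further peak outside the region. It was 727 bp and 1.10-fold in WT DD (412630 to 413356, −log10 q 0.40), covering 26.4% of the gene at the end that faces NCU04695. In WT LP30 it was 847 bp and 1.11-fold (411889 to 412735, −log10 q 0.59), covering 37.3% and lying nearer the middle of the gene. The peaks of the 2 conditions overlapped by 106 bp. No mutant peak lay in the window, and the nearest to NCU04695 was 12115 bp away in DD and 12444 bp in LP30.

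The 5 regions were compared with the other regions in the study's list of lower H3K9me3 in Δset-1, taking those that name a transcript without higher RNA in the mutant. In DD all 5 chosen regions had a WT peak and no mutant peak, whereas of 43 other regions 42 had a WT peak and 15 a mutant peak. The median fold enrichment of the WT DD peaks was 1.12 (1.10 to 1.13) at the chosen regions and 1.23 (1.10 to 3.28) at the others. A q-value under 0.01 occurred at 0 of 5 and 20 of 43 regions. The WT peaks of the chosen regions thus lay at the low end of the range of the others. Most other regions with weak WT peaks had the same pattern. Of the 22 with a q-value of 0.01 or more, 2 had a mutant peak and 20 did not, a count added after seeing the data. These 22 reached 1.23-fold, against at most 1.13 at the chosen regions. They were also listed for lower H3K9me3 in Δset-1, which favours this pattern. The median length was 1377 bp at the chosen regions and 1052.5 bp at the others.

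In LP30 the list names 3 of the chosen regions, those of NCU02913, NCU05663 and NCU04694/NCU04695, and 28 others. One of the 28 lies at the place of NCU08524 but names a transcript other than its own, so the groups share a locus there. The median fold enrichment was 1.14 (1.12 to 1.14) at the 3 and 1.248 (1.13 to 3.32) at the 28, with a q-value under 0.01 at 0 of 3 and 16 of 28. A mutant peak was present at 0 of 3 and 12 of 28. Without the region at NCU08524, a count added after seeing the data, the 27 others had a median of 1.26, with a q-value under 0.01 at 16 and a mutant peak at 12. The region touched an annotated gene at 4 of the 5 DD regions chosen and at 15 of the 43 others. The chosen regions all name transcripts of annotated genes, so this contrast partly follows from the choice. RNA took part in dividing the groups, but 10 other listed regions with higher RNA, DD and LP30 together, are in neither. The comparison is therefore not one of higher RNA against the rest. These are counts of 2 unequal groups, with no test.

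**Figure D2:**
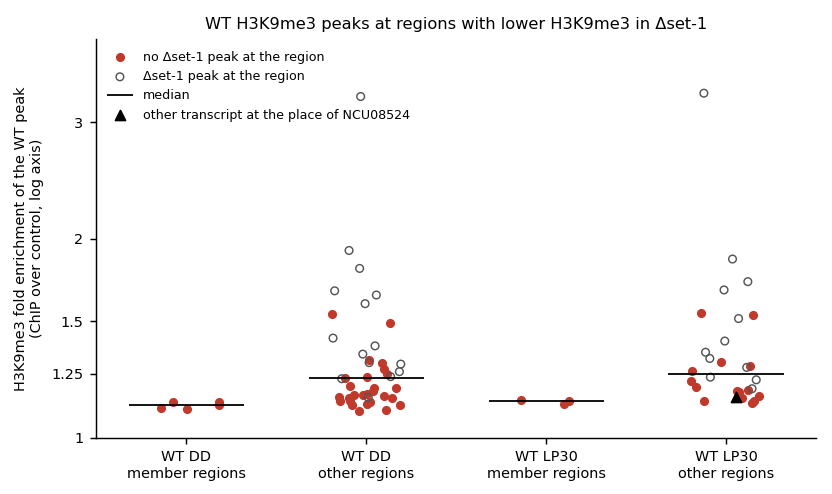
Fold enrichment (log axis) of the WT H3K9me3 peak at regions with lower H3K9me3 in Δset-1, for the regions of the 6 genes and for the other regions, in DD and LP30. Each point is a region, filled where Δset-1 has no peak there, and the line is the median. The points of the listed regions of the 6 genes lie between 1.10 and 1.14, at the bottom of the range of the others. The triangle is the LP30 region at the place of NCU08524, which names another transcript and is counted with the others, at 1.15.

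Light was compared with dark within WT, as a description, since the WT reads of both conditions took part in the choice of the genes. Within the 5 regions the bases under WT H3K9me3 peaks were 1374 in DD and 200 in LP30 at NCU02913, 2139 and 1368 at NCU05663, and 3505 and 2176 at NCU08524. They were 457 and 421 at NCU04883 and 656 and 403 at NCU04694/NCU04695. Coverage was lower in LP30 at all 5 regions, 8131 bp in DD and 4568 bp in LP30 in all. The DD list was used to place all 5 loci, and the LP30 list only 3 of them.

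The edges of weak peaks differed between the WT lists in general. Of the bases under the 6 WT DD peaks at the 5 regions, 55.3% were also under a WT LP30 peak. The share was 62.4% over all 354 WT DD peaks with a q-value of 0.01 or more, and 96.0% over all 691 peaks. The peaks of the 6 genes were thus close to other weak peaks in this measure. In the same way, 78.2% of the bases of those weak WT DD peaks and 97.2% of all were also under a Δset-1 DD peak, against 0% at the chosen regions, as the choice fixes.

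Over the whole windows, H3K9me3 peaks covered 18863 bp (31.8%) in WT DD, 14085 bp (23.7%) in WT LP30, 7019 bp (11.8%) in Δset-1 DD and 7763 bp (13.1%) in Δset-1 LP30. The numbers of peaks were 13, 13, 4 and 3. From 5 to 50 kb on either side of the same regions, the mutant lists had the larger coverage, with 170.6 kb in WT DD, 160.0 in WT LP30, 202.9 in Δset-1 DD and 206.1 in Δset-1 LP30. The whole lists cover 7.71, 7.53, 8.35 and 8.28 Mb in that order.

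The flanks differed from locus to locus. Around NCU04883 coverage was 20.8 kb in WT DD and 34.5 in Δset-1 DD, and 14.4 and 37.8 kb in LP30. Around NCU05663 it was 52.4 and 66.1 kb in DD and 50.4 and 67.1 in LP30, and around NCU04694/NCU04695 51.4 and 59.2 kb in DD and 50.1 and 59.4 in LP30. These 3 loci had more H3K9me3 coverage in the mutant's flanks in both conditions. NCU08524 went the other way, with 46.0 and 43.2 kb in DD and 45.1 and 41.9 in LP30, and NCU02913 had none in any list.

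Within 50 kb of NCU04883 a peak of 10 kb or more was listed in the mutant only. This depends on the length limit. With a limit of 5 kb, 4 of the 5 loci had such a peak within 50 kb in WT DD, NCU04883 among them. The nearest peak of 10 kb or more was 163 kb from its region in WT DD, and 20.8 kb in Δset-1 DD and 20.4 kb in Δset-1 LP30. For the other loci the nearest such peak in WT DD was 1.20 kb from the region of NCU08524, 17.6 kb from that of NCU04694/NCU04695 and 21.6 kb from that of NCU05663. The 5 loci thus range from the edge of a WT DD peak of 10 kb or more to 423 kb away, and 3 of them lie within 50 kb of one. The share of all genes within 50 kb of such a peak was not counted, so this is description only. None is at a chromosome end, since the outermost annotated gene ends were 215 to 1054 kb away.

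**Figure D3:**
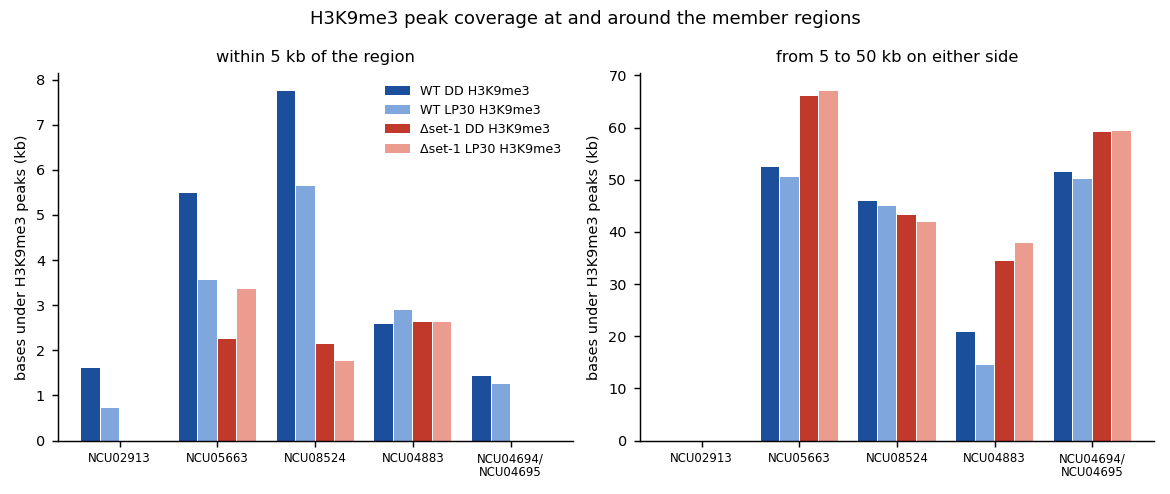
Bases under H3K9me3 peaks (kb) in the 4 lists, within 5 kb of the region (left) and from 5 to 50 kb on either side (right), for the 5 loci. Bars are pooled lists without error bars. Within 5 kb the WT bars clearly exceed those of Δset-1 at NCU02913, NCU08524 and NCU04694/NCU04695 in both conditions and at NCU05663 in DD, and are of similar height at NCU05663 in LP30 (3560 and 3362 bp) and at NCU04883, while in the flanks the mutant bars are the higher ones at NCU05663, NCU04883 and NCU04694/NCU04695.

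H3K4me3 was not used to choose the genes. In WT DD 2 of 6 had an H3K4me3 peak over the gene, where 43.5% of all genes did, and in WT LP30 0 of 6, where 43.6% did. In Δdim-5 it was 1 of 6 in DD (44.6% of all genes) and 1 of 6 in LP30 (45.2%). Among the 15 neighbours it was 3 in WT DD, 3 in WT LP30, 4 in Δdim-5 DD and 3 in Δdim-5 LP30. The count in WT DD is near the share over all genes and the other 3 are below it, and no test was made on genes picked in this way.

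NCU04883, NCU04694 and NCU04695 had no H3K4me3 peak in their windows in any of the 4 lists. The nearest H3K4me3 peak was 6749 to 7000 bp from NCU04883, 7299 to 13056 bp from NCU04694 and 3932 to 9689 bp from NCU04695, depending on the list. Of the 6 genes 2, NCU04883 and NCU04694, had no peak of any list within 5 kb of the gene, against 14.6% of all genes. Every one of the 6 had a peak of some list within 10 kb. The share of all genes at that distance is not given here, so nothing is read from this count.

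NCU02913 and NCU05663 had a small H3K4me3 peak in WT DD only. At NCU02913 it spanned 341 bp (8717276 to 8717616) with a fold enrichment of 1.15, from 214 ChIP fragments over 186 in the control at the summit, and the 95% exact Poisson interval of the ratio was 1.00 to 1.32. At NCU05663 it spanned 268 bp (402660 to 402927) with 1.16-fold, from 243 over 210 fragments, interval 1.02 to 1.31. Neither reached a q-value of 0.01. These intervals cover the counting error of the ChIP alone and not that of the control or of repeated cultures. The fragment numbers were solved from the fold enrichment and p-value, and the control values are not counts. At these 2 peaks the solved ChIP values, 213.978 and 242.945, were not whole within 0.02, so the intervals are approximate. The lower bounds lie close to 1, and a difference from the other 3 lists was not tested.

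NCU08524 had an H3K4me3 peak in Δdim-5 and none in WT. In Δdim-5 DD the peak spanned 1148 bp (5053644 to 5054791), 51.2% of the gene, with 359 ChIP fragments over 247 in the control, 1.45-fold (interval 1.31 to 1.61, −log10 q 9.96). In Δdim-5 LP30 it spanned 1107 bp (5053645 to 5054751), 49.3% of the gene, with 345 over 255 fragments, 1.35-fold (1.21 to 1.499, −log10 q 6.43). Its start differed by 1 bp between the lists and lay 19 and 20 bp inside the gene. A gene with a peak in the mutant and none in WT was 1 of 6 in DD, where 2.59% of all genes were, and 1 of 6 in LP30, where 2.99% were. The peak lay at the other end of the gene from the WT H3K9me3 peak, 773 bp from it in DD and 876 bp in LP30.

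The neighbour NCU16472 showed the same pattern. In Δdim-5 DD its peak spanned 780 bp with 302 over 223 fragments, 1.36-fold (1.21 to 1.52, −log10 q 5.79), and in Δdim-5 LP30 610 bp with 288 over 225, 1.28-fold (1.14 to 1.44, −log10 q 3.78). WT had none in either condition. These peaks spanned the place of the WT H3K9me3 peak on NCU16472, while NCU02913 across the divergent promoter had no H3K4me3 peak in Δdim-5.

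**Figure D4:**
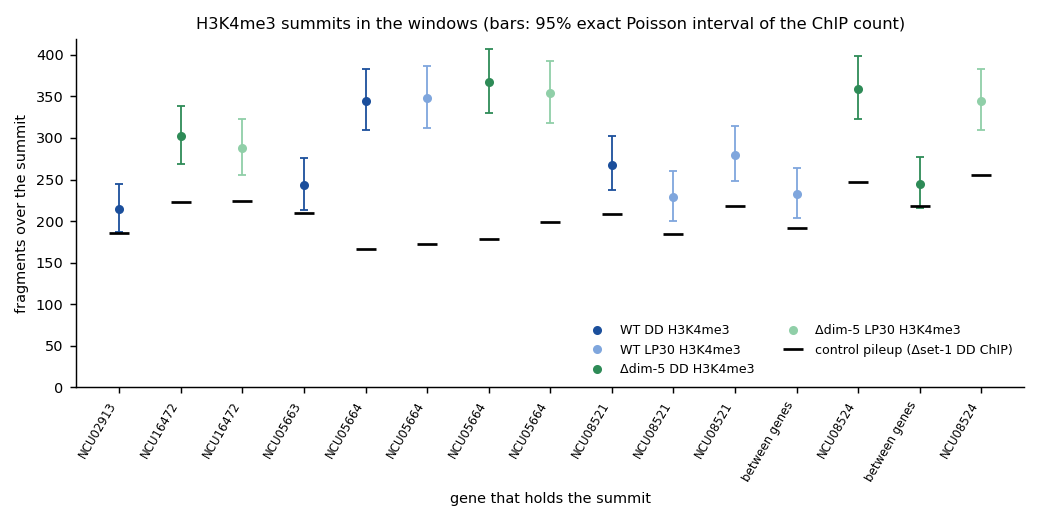
ChIP fragments at the summit of each H3K4me3 peak in the windows (points, with the 95% exact Poisson interval) and control values (black dashes), labelled by the gene that holds the summit. Both were solved from the fold enrichment and p-value. The NCU08524 and NCU16472 points, all from Δdim-5, stand clear of their controls, whereas the WT DD points of NCU02913 and NCU05663 have intervals that reach down close to the control.

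Other H3K4me3 peaks in the windows touched neighbours, with 1 exception. In WT LP30 a peak of 505 bp and 1.21-fold (5061781 to 5062285), beside NCU08521, touched no annotated gene. NCU05664 had a strong one in all 4 lists, 2.07-fold in WT DD, 2.02 in WT LP30, 2.05 in Δdim-5 DD and 1.78 in Δdim-5 LP30. NCU08521, at the edge of the long domain next to NCU08524, had a peak of 1.28-fold in WT DD and peaks of 1.24 and 1.28 in WT LP30. In Δdim-5 a peak of 1.12-fold touched it in DD, with an interval of 0.99 to 1.27, and none in LP30. Thus within 1 window H3K4me3 was listed over NCU08521 in WT and over NCU08524 in Δdim-5. Over the 5 windows H3K4me3 peaks covered 3079 bp in WT DD, 2493 in WT LP30, 3752 in Δdim-5 DD and 3272 in Δdim-5 LP30.

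In WT the 2 marks met at 3 loci in DD and 1 in LP30. At NCU02913 the whole H3K4me3 peak of 341 bp lay under the H3K9me3 peak in DD, and at NCU05663 217 of its 268 bp did. At the locus of NCU08524 the overlap was not at the gene but at NCU08521 and the edge of the long domain, with 919 bp in DD and pieces of 241 and 264 bp in LP30. Over the 6 genes themselves, an overlap of the marks occurred at 2 in DD and at 0 in LP30. The share over all genes was not counted, so nothing is read from these counts. Across the genome, the paper reports more loci with both marks after light than in the dark. Since each list pools many nuclei, overlapping peaks do not show both marks on one nucleosome.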

How the data were processed

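H3K9me3 and H3K4me3 ChIP-seq was done on mycelia of WT, Δset-1 and Δdim-5, with 2 replicates per group. The paper states a sequencing depth of 50 M single-end reads, each 50 bp long. The lists hold no read totals, so the depth per sample could not be checked. The authors mapped the reads to build NC12 with BWA and called peaks on pooled replicates with MACS2, broad peaks for H3K9me3 and narrow peaks for H3K4me3. The MACS2 version is not given in the sources used here. The fold enrichment deposited by the authors is the ratio of ChIP to control, over the whole peak for broad peaks and at the summit for narrow ones, and the authors' −log10 p and −log10 q columns describe the same span.

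The members, lists and rules were chosen with earlier results of these data known. Regions were matched to genes by script through the transcript numbers in the study's lists, of which the positions and names were used. The study's calls of higher RNA in Δset-1 were also used, to leave regions out of the comparison. Gene spans came from a RefSeq annotation of NC12 without strand, holding 10397 genes. The genes named are the 6 genes, all genes touching their windows, and the 2 deleted genes. A peak counted as over a gene or region, or shared, at an overlap of at least 1 bp. Comparison regions were 71 others (43 in DD, 28 in LP30) that name a transcript without higher RNA. Of the study's listed regions that name a transcript, 10 with higher RNA at other genes or transcripts were not analysed here. At H3K4me3 summits the ChIP and control fragments were solved from the fold enrichment and p-value with a pseudocount of 1. The control values are therefore not counts. The ChIP number came out whole within 0.02 for 11 of 15 peaks. Poisson intervals of 95% cover counting error only. Peak comparison and pileup recovery were checked on simulated data. Python 3.11.15, numpy 2.4.6, scipy 1.17.1 and matplotlib 3.10.9 were used. Alternatives were stricter peaks, other overlaps, distances and windows.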

Additional observations from a re-analysis of the deposited data

How the results depend on the processing

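No paired analysis was possible because each list pools its replicates, and for the same reason no replicate could be left out. Of 62 alternatives over 20 values, 36 left the value within 1.5 times, 26 moved it and 0 turned a direction. With only peaks of q under 0.01, the loci with a WT-only H3K9me3 peak fell from 5 to 0 in DD and in LP30, and the same held for peaks enriched at least 25% above the control. The share of all WT peaks without a Δset-1 peak became 5.64% (DD) and 5.85% (LP30) under that q limit, and 3.96% and 4.20% under the fold limit. Under the q limit, the WT minus Δset-1 difference in H3K9me3 bases was 2423 bp in DD and 799 bp in LP30, and in LP30 with windows of 10 kb it was 3893 bp. Genes with a WT H3K9me3 peak fell to 0 in both conditions under the q limit. Counting Δset-1 peaks within 1 kb of the gene gave 2 genes in DD and 1 in LP30. For the gene counts of this section, the share over all genes under the same setting is not given. These counts therefore show only how the values depend on the setting.

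The Δdim-5 minus WT difference in H3K4me3 bases was 1319 bp (DD) and 1476 bp (LP30) with 2 kb windows, and 1037 and 1284 bp under the q limit. Genes with an H3K4me3 peak in WT DD fell to 0 under the q limit and under a fold of at least 1.5, and those in Δdim-5 to 0 in DD and LP30 under the fold limit. Loci with overlapping marks became 1 in DD and 0 in LP30 under the q limit. Genes without H3K4me3 within 10 kb were 0, a distance chosen after seeing the data. All H3K9me3 peaks over the 6 genes passed only the permissive cutoff, and the part of sequencing depth in this was not tested.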
